A study of Mus musculus with 18 samples.

Results

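Glul, Oat and Slc1a2, a trio of genes for making glutamine in the hepatocytes around the central vein, were followed through liver zonation and fasting. The members were the 3 listed gene symbols, matched to mouse Ensembl identifiers, out of 28030 genes in the table of counts. All 3 passed the filter on low counts, which left 12477 genes for testing. The libraries came from isolated liver cells of male wild-type C57BL/6J mice aged 12 weeks and kept on normal chow. Each library held total RNA of hepatocytes labelled pericentral (PC, next to the central vein, where blood leaves the lobule) or periportal (PP, next to the portal tract, where blood enters). Both zones were taken with digitonin, a detergent that opens cells it is perfused over, so that the hepatocytes of a zone can be separated from the rest. All mice were first trained for 3 days with a fast of 16 h in each day, and on the last day had food together with water holding 20% sucrose. Fed mice were killed at hour 13 of the clock after 4 h of feeding. The other mice lost food and sucrose at that hour and were killed after 8 h, at hour 21, or after 24 h, again at hour 13. The 8 h group therefore also differs from the other 2 states in its time of day, and that share of a difference cannot be told apart from fasting. The 6 groups of zone and state held 3 libraries each, 18 in all. The labels do not say whether each library was a separate mouse or whether the same mouse gave both zones, so the p-values measure the spread between these libraries.

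Glutamine synthetase, encoded by Glul, joins ammonia to glutamate and makes glutamine. In the liver it is known for a narrow ring of hepatocytes around the central vein, which take up the ammonia that the urea cycle upstream has left in the blood. Oat encodes ornithine aminotransferase, a mitochondrial enzyme that moves the amino group of ornithine to 2-oxoglutarate and so yields glutamate. Slc1a2 encodes the sodium-driven glutamate transporter GLT-1 (EAAT2), best known from astrocytes, which brings glutamate into the cell. All 3 genes are known to depend on Wnt and beta-catenin signalling from the central vein.

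On GRCm38, the mm10 build, the GENCODE M21 annotation places Glul on the plus strand at chr1:153899944-153909723, Oat on the minus strand at chr7:132557478-132576398 and Slc1a2 on the plus strand at chr2:102658659-102790784. The counts are per gene, so all annotated exons and UTRs contribute. Merged exons cover 3.32 kb for Glul, 2.36 kb for Oat and 13.13 kb for Slc1a2, whose 12 annotated transcripts share reads by estimation. The 250 bases before each RefSeq start (GRCm38.p6) are shown because the genes share a zone and a short promoter is where shared letters could be read. Capitals mark matches on either strand to the motifs searched. The windows are chr1:153899679-153899928 on the plus strand for Glul, chr7:132576399-132576648 on the minus strand for Oat, and chr2:102706188-102706437 on the plus strand for Slc1a2.
Glul: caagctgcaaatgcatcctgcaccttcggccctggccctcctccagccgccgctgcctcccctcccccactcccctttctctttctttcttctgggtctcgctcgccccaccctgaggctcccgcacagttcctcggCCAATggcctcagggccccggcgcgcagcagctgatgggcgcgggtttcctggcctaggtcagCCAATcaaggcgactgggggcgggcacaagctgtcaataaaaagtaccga
Oat: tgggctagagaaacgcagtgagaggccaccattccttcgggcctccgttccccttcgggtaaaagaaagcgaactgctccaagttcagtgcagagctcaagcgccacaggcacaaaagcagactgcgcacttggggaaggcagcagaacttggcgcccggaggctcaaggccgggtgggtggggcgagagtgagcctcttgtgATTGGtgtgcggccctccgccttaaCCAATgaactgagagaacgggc
Slc1a2: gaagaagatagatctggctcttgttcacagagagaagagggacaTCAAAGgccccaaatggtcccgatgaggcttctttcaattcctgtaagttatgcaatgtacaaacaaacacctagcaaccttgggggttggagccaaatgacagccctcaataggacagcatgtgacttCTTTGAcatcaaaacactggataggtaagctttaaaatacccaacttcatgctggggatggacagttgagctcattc
The letters CTTTGA, the core bound by TCF/LEF factors, the partners of beta-catenin, were found only in the Slc1a2 window among these 3, with 2 matches at 206 and 77 bases before the start. That window lies before a start inside the GENCODE gene, not before the gene's first base. CCAAT, the box bound by NF-Y, had 2 matches before Glul, at 113 and 50 bases, and 2 before Oat, at 47 and 22 bases. Neither GTAAACA, a FOXO site, nor AGAACA, a glucocorticoid receptor half-site, was in any of the 3 windows. Of 32851 promoter windows of the same length, 13.8% held CTTTGA, 33.8% CCAAT, 3.17% GTAAACA and 16.1% AGAACA, and no match here overlapped another. These matches are letters in a window and not measured binding.

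Library totals ran from 18359825 to 26384274 estimated counts. The labelled zones were described by marker genes that exclude the trio. These lists were chosen with earlier results of these data known, so they are no independent check of the labels. The 14 other pericentral markers summed to 14750 to 26223 CPM (read counts scaled to a common library size and composition) in the 9 pericentral libraries and to 2334 to 4107 CPM in the 9 periportal ones. The 15 periportal markers summed to 1380 to 1816 CPM in pericentral and 7722 to 10407 CPM in periportal libraries of fed mice, to 3847 to 4189 CPM and 10354 to 17109 CPM after 8 h, and to 7423 to 9277 CPM and 14550 to 17340 CPM after 24 h. The sums of the zones did not overlap within any state. On average over the states 14 of the 15 periportal markers were called higher periportally by edgeR and 1 was called higher pericentrally. Of the 14 other pericentral markers 13 were called higher pericentrally and 0 periportally. Over all genes tested 10.3% were called higher periportally and 9.96% pericentrally. Replicate 2 of the 24 h pericentral group stood apart. On the first principal component of all genes tested it lay at -0.219, the highest of the pericentral libraries, whose others lay between -49.8 and -10.3, and still below the periportal ones, between 15 and 47.3. Results that rest on it are given with and without it.

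Slc1a2, the uptake step, had the widest gap between zones. In fed mice its level was 195, 217 and 95.8 CPM in the 3 pericentral libraries and 2.48, 2.28 and 1.25 CPM in the 3 periportal ones. After 8 h it was 129, 190 and 154 CPM pericentrally against 1.57, 4.09 and 1.86 CPM. After 24 h it was 241, 8.82 and 256 CPM pericentrally against 5.09, 2.87 and 2.57 CPM. The zones did not overlap in any state, and even the low 24 h library, with 240 counts, lay above every periportal library, which held 34 to 92 counts each. In fed mice the periportal level was 84.9-fold lower, a log2 value of -6.41 for periportal over pericentral (SE 0.99, adjusted p = 0.00121 by edgeR's quasi-likelihood test). It was -5.97 (SE 0.97, adjusted p = 0.00200) after 8 h and -5.60 (SE 0.95, adjusted p = 0.00413) after 24 h. Averaged over the states it was -6.00 (SE 0.56, adjusted p = 4.55e-06), the fourth lowest value among the 12477 genes tested. In RNA of whole cell fractions, fewer cells with a transcript and less transcript per cell cannot be told apart.

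Oat, the step from ornithine to glutamate, was also nearly restricted to the pericentral libraries. Fed mice had 1421, 1328 and 956 CPM in the pericentral and 17.5, 38.0 and 11.8 CPM in the periportal libraries. After 8 h the values were 561, 772 and 716 CPM against 22.0, 40.5 and 12.1 CPM. After 24 h they were 1055, 257 and 1158 CPM against 58.2, 37.3 and 18.9 CPM. No state showed an overlap, and the lowest pericentral library lay above the highest periportal one. For fed mice the zone value was -5.78 (SE 0.72, adjusted p = 0.000204), followed by -4.78 (SE 0.68, adjusted p = 0.000764) after 8 h and -4.43 (SE 0.67, adjusted p = 0.00194) after 24 h. Without replicate 2 of the fed periportal group, at 38.0 CPM the highest of its 3 libraries, the fed value was -6.41. The average of -5.00 (SE 0.40, adjusted p = 1.04e-06) is a 32-fold lower periportal level.

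Glul, the synthetase itself, was the least steep of the 3 and kept a measurable periportal level. The pericentral libraries held 1375, 1069 and 552 CPM in fed mice and the periportal ones 107, 145 and 62.6 CPM. After 8 h the values were 567, 776 and 607 CPM against 67.7, 96.7 and 93.8 CPM. After 24 h they were 928, 111 and 707 CPM against 121, 175 and 111 CPM. Here the low pericentral library lay level with the lowest periportal one, so the zones overlapped at 24 h and in no other state. The zone value of fed mice was -3.25 (SE 0.61, adjusted p = 0.00437) and that of 8 h was -2.92 (SE 0.60, adjusted p = 0.00857). At 24 h it was -2.10 (SE 0.58, adjusted p = 0.0623) and did not pass the threshold of 0.05. Without pericentral replicate 2 it was -2.59, a 6.03-fold lower periportal level. That library was singled out for its low values of these genes. A smaller p-value without it follows from that choice and is not given. The average over states was -2.76 (SE 0.34, adjusted p = 5.58e-05).

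Of the 3 genes, 3 passed as higher in the pericentral zone in fed mice, 3 after 8 h, 2 after 24 h and 3 on average. Over all genes tested the share called in that direction was 4.13%, 3.42%, 2.47% and 9.96%, and 10.3% were called higher in the periportal zone on average. The calls of Oat and Slc1a2 at 24 h depended on which libraries were in the fit. With only the 24 h libraries in the edgeR fit the adjusted p was 0.0621 for Oat and 0.168 for Slc1a2. Deviations of same-numbered 24 h libraries of the 2 zones were weakly correlated over all genes tested (0.12 to 0.17). With the replicate number as a block in the fit of the 24 h libraries alone, the log2 fold change was -1.76 for Glul (adjusted p = 0.521). It was -4.27 for Oat (0.149) and -4.85 for Slc1a2 (0.278).

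**Figure D1:**
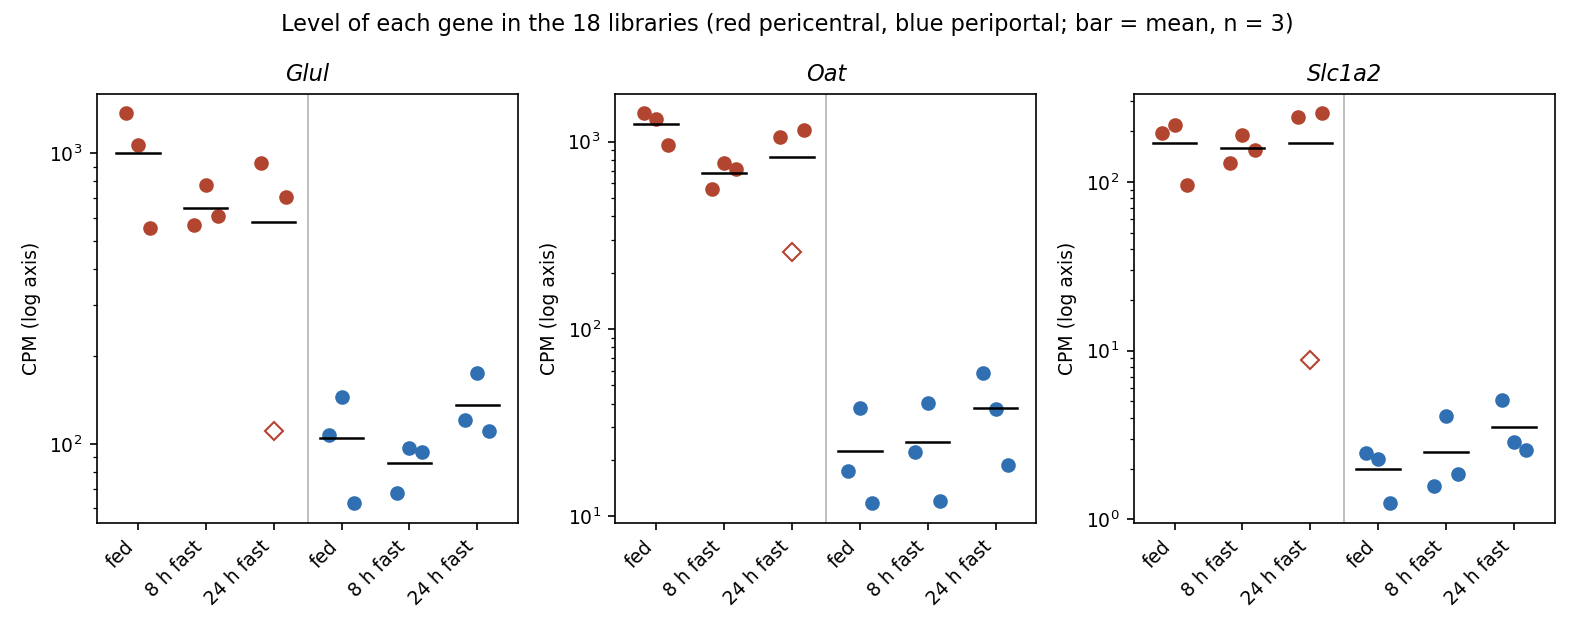
Level of Glul, Oat and Slc1a2 in each of the 18 libraries in CPM on a log axis, by state, with pericentral libraries in red, periportal libraries in blue, and a bar at the mean of each group (n = 3). The open diamond is replicate 2 of the 24 h pericentral group, at 111 CPM for Glul, 257 CPM for Oat and 8.82 CPM for Slc1a2.

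Ordered by group mean, every pericentral group lay above every periportal group for all 3 genes. For Slc1a2 the pericentral groups had means of 169 ± 64.5 CPM fed, 169 ± 139 CPM after 24 h and 158 ± 30.8 CPM after 8 h (mean ± SD, n = 3). Without replicate 2 the 24 h mean was 249 ± 10.8 CPM (n = 2), the highest of the groups, with both libraries above every other. The next group, periportal after 24 h at 3.51 ± 1.37 CPM, was 44.9-fold below the last of these, and this was the single step in the order without overlap. For Oat the order was fed (1235 ± 246 CPM), 24 h (823 ± 493 CPM) and 8 h (683 ± 109 CPM) in the pericentral zone. A 17.9-fold step then led to 38.1 ± 19.7 CPM after 24 h, 24.9 ± 14.4 CPM after 8 h and 22.4 ± 13.8 CPM fed in the periportal zone, and neighbours on either side of the step overlapped. Without replicate 2 the 24 h pericentral mean of Oat was 1107 ± 73.3 CPM (n = 2), which kept its place but no longer overlapped the 8 h group. For Glul all neighbours overlapped, from 998 ± 416 CPM fed, 650 ± 111 CPM after 8 h and 582 ± 423 CPM after 24 h to the periportal 136 ± 34.1, 105 ± 41.2 and 86.1 ± 16.0 CPM after 24 h, fed and after 8 h. Without replicate 2 the 24 h pericentral mean of Glul was 818 ± 156 CPM (n = 2), above that of 8 h, and the zones no longer overlapped. Replicate 2 was singled out for its low values of these genes. The orders and gaps given without it are shaped by that choice and are not read as results. Levels of different genes were set side by side only per kb of merged exon. On that scale Oat led in fed pericentral libraries at 523 ± 104 CPM per kb, followed by Glul at 301 ± 125 and Slc1a2 at 12.9 ± 4.92 CPM per kb. In fed periportal libraries Glul led at 31.6 ± 12.4 CPM per kb, above Oat at 9.51 ± 5.84 and Slc1a2 at 0.153 ± 0.0503 CPM per kb. The mean per kb of Oat was above that of Glul in all 3 pericentral groups and below it in all 3 periportal groups.

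How steep the zone gap of each gene was relative to the others was measured within each library as a log2 ratio of pairs of the 3 genes, which removes library scaling. The Oat to Glul ratio was -2.07 ± 0.65 in the 9 periportal libraries and 0.39 ± 0.43 in the 9 pericentral ones, a difference of -2.46. The Slc1a2 to Glul ratio was -5.39 ± 0.51 and -2.32 ± 0.63, a difference of -3.07. For each of these ratios no periportal library reached a pericentral one. An exact two-sided permutation test within states gave p = 0.00025 for both, the smallest p its 8000 arrangements allow, and an adjusted p of 0.00150 over 12 such tests. The steeper zonation of Oat and Slc1a2 than of Glul was therefore larger than the spread between libraries. Slc1a2 against Oat differed by -0.62 between the zones (exact permutation p = 0.0965, adjusted p = 0.289). Without replicate 2 of the 24 h pericentral group that difference was -0.92, so its size moved with 1 library. That library was singled out for its low values, so no p-value is given without it here.

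**Figure D2:**
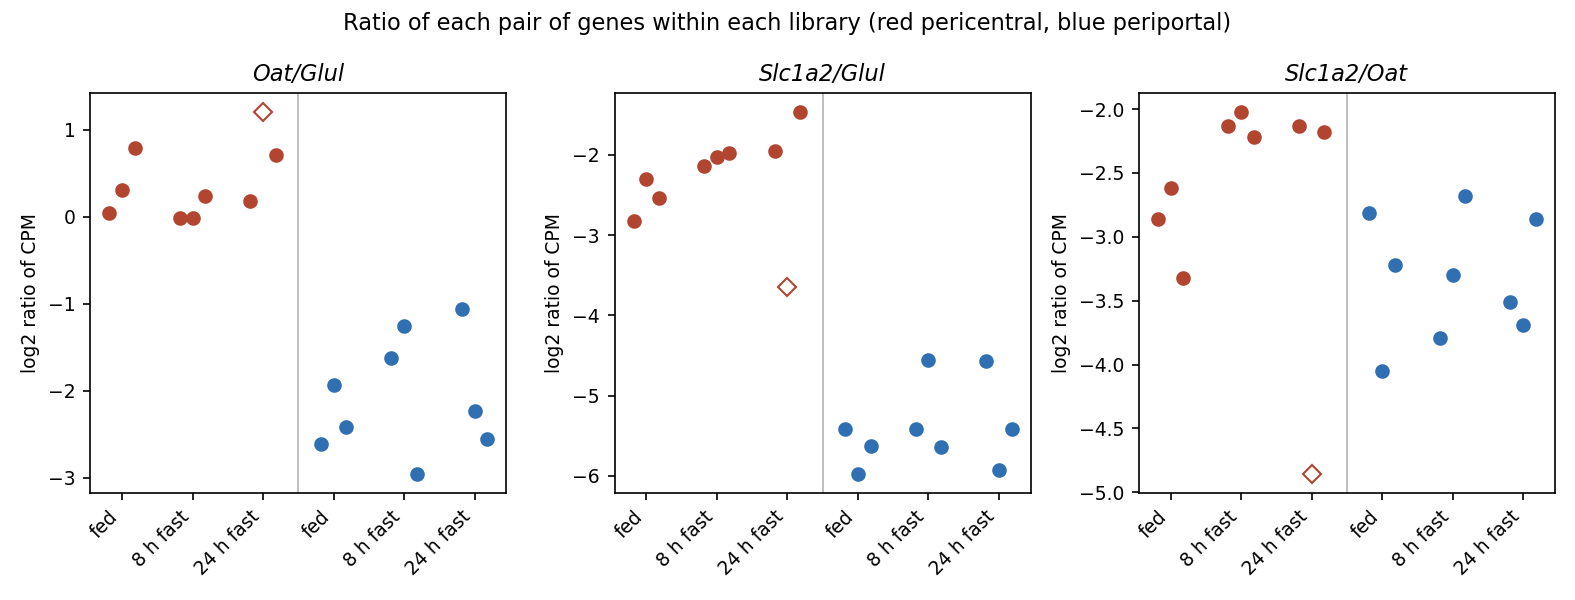
Log2 ratio of CPM of each pair of genes within each of the 18 libraries, by state, with pericentral libraries in red, periportal libraries in blue and replicate 2 of the 24 h pericentral group as an open diamond. The Oat to Glul and Slc1a2 to Glul ratios of the zones do not overlap, while those of Slc1a2 to Oat do.

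None of the 3 genes passed the threshold for a change with fasting in either zone. In the pericentral libraries the log2 fold change of Glul was -0.62 (95% interval -1.82 to 0.58) from fed to 8 h and -0.78 (-1.98 to 0.43) from fed to 24 h. Without the low library the 24 h value was -0.29 (-1.08 to 0.50). Oat was 1.81-fold lower after 8 h, at a log2 fold change of -0.85 (-2.11 to 0.40, adjusted p = 0.392). Its 8 h libraries all lay below its fed libraries, and with only these 2 groups in the fit the adjusted p was 0.0200. After 24 h Oat stood at -0.58 (-1.84 to 0.67), or at -0.16 (-1.33 to 1.01) without the low library. Slc1a2 stood at -0.10 (-1.71 to 1.5) after 8 h and at -0.01 (-1.61 to 1.60) after 24 h. Without the low library its 24 h value was 0.55 (-0.25 to 1.36), so its direction turned with that library. The intervals without that library are narrower, since it was singled out for its low values, and they are not read as tests. With all libraries, each of the 6 pericentral intervals against fed reached -1.61 or lower, so a loss of that size was within the error.

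In the periportal libraries the 24 h value against fed was positive for each gene and within its interval. It was 0.37 (-0.84 to 1.58) for Glul, 0.76 (-0.52 to 2.05) for Oat and 0.80 (-1.34 to 2.94) for Slc1a2. All 3 periportal Slc1a2 libraries at 24 h lay above the 3 fed ones, from 2.57 to 5.09 CPM against 1.25 to 2.48 CPM, with an adjusted p of 0.635. All 3 periportal Glul libraries at 24 h lay above the 3 at 8 h, from 111 to 175 CPM against 67.7 to 96.7 CPM, with an adjusted p of 0.546. How often genes over the whole table lack overlap in such contrasts was not counted. The lack of overlap here, and of pericentral Oat above, is therefore not read as a change. From fed to 8 h the periportal values were -0.28 (-1.49 to 0.92) for Glul, 0.15 (-1.13 to 1.43) for Oat and 0.33 (-1.86 to 2.52) for Slc1a2. Thus 0 of the 3 genes passed in any of 6 fasting contrasts by edgeR. Over all genes, 13.8% passed from fed to 8 h in the pericentral zone and 14.4% in the periportal zone, in either direction. From 8 h to 24 h 9.71% and 7.46% passed. From fed to 24 h 10.8% rose and 11.1% fell pericentrally, and 9.59% rose and 10.0% fell periportally. Against these shares a count of 0 among 3 genes says little about the trio.

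The change of the zone gap itself was tested as an interaction. Positive values stand for a smaller gap in the later state. From fed to 24 h the value was 1.15 (95% interval -0.56 to 2.86, adjusted p = 0.793) for Glul, 1.35 (-0.44 to 3.14, adjusted p = 0.749) for Oat and 0.80 (-1.87 to 3.48, adjusted p = 0.925) for Slc1a2. Without the low library these values were 0.66, 0.92 and 0.24. From fed to 8 h they were 0.33 for Glul, 1.0 for Oat and 0.43 for Slc1a2, and from 8 h to 24 h they were 0.82, 0.35 and 0.37. The values from 8 h to 24 h without the low library were 0.32, -0.08 and -0.19, so the direction of Oat and Slc1a2 turned with it. None of the 9 passed. Over all genes edgeR called 0, 2 and 0 of 12477 from fed to 8 h, fed to 24 h and 8 h to 24 h, which is 0%, 0.0160% and 0%. At an unadjusted p under 0.05 the counts were 680, 962 and 746, and DESeq2 called 6, 38 and 3.
The ratio of Slc1a2 to Glul within libraries was 0.49 higher after 8 h than in fed mice over both zones (exact two-sided permutation p = 0.0200, adjusted p = 0.0800). In the pericentral zone it was -2.82, -2.30 and -2.53 in fed libraries and -2.14, -2.03 and -1.98 after 8 h, with no overlap. In the periportal zone it was -5.42, -5.98 and -5.63 in fed libraries and -5.41, -4.56 and -5.64 after 8 h, with overlap. How often ratios of other genes lack overlap was not counted, so the pericentral gap is not read as a change. Single libraries moved the value of 0.49. Without replicate 3 of the 8 h periportal group the value was 0.60 (adjusted p = 0.0200), without replicate 2 of that group 0.33 (adjusted p = 0.160) and without replicate 2 of the fed periportal group 0.41 (adjusted p = 0.280), all by the exact permutation test. With the replicate block the adjusted p was 0.246. The other 8 fasting comparisons of ratios had adjusted p-values from 0.300 to 0.940.

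**Figure D3:**
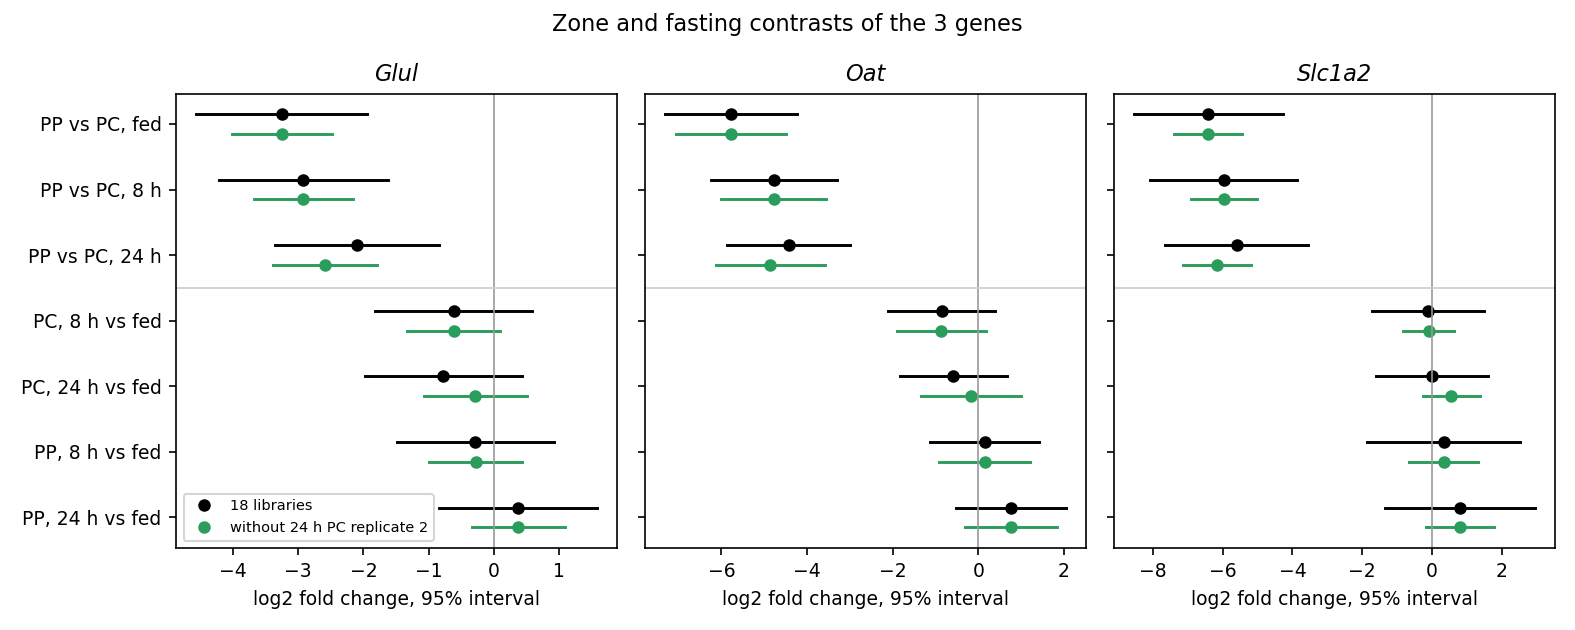
Log2 fold changes of Glul, Oat and Slc1a2 with 95% intervals from edgeR, for periportal over pericentral in each state (upper rows) and for fasting in each zone (lower rows), with all 18 libraries in black and without replicate 2 of the 24 h pericentral group in green. Zone intervals lie below 0 and fasting intervals include 0. The intervals are narrower in green, where a library singled out for its low values is left out.

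The 24 h pericentral group was the most variable of the pericentral groups for each gene, with coefficients of variation of 72.6% for Glul, 59.9% for Oat and 82.2% for Slc1a2. Against the mean log2 CPM of its 2 mates, replicate 2 was 27.9-fold lower in Slc1a2, 7.30-fold lower in Glul and 4.30-fold lower in Oat. The library is described here because its values of the 3 genes were low, so these folds were used to choose it and have no test. The other pericentral markers were below both mates in 12 of 14 cases, with a median log2 difference of -1.11. The Wnt target genes of the zone were below both in 8 of 12 (median -0.54). The periportal markers were above both mates in 13 of 15 cases (median 0.78), and their sum was 9277 CPM against 7423 and 7500 CPM. Over all genes 32.5% were below both mates and 33.2% above both. The log2 ratio of Slc1a2 to Oat was -4.86 in this library and -2.13 and -2.18 in its mates, and Oat to Glul was 1.21 against 0.18 and 0.71. What these marker shifts contribute to the low values of the trio was not tested.
Other libraries varied less. Replicate 3 of the fed pericentral group was lower than its mates by 1.14 in log2 CPM for Glul and 1.10 for Slc1a2, against -0.19 for the pericentral marker median and 0.60 for the periportal one. In the periportal zone, fed replicate 2 was higher than its mates by 1.4 for Oat, 0.83 for Glul and 0.35 for Slc1a2. The pericentral marker median was 1.12 higher there. At 24 h, periportal replicate 1 was higher by 1.13 for Oat and 0.88 for Slc1a2, beside 1.02 for that median, while Glul was at -0.20. After 8 h, periportal replicate 2 was higher by 1.31 for Oat, 1.22 for Slc1a2 and 0.28 for Glul, beside 0.39 for that median. Periportal replicate 3 after 8 h was at -1.30 for Oat, -0.43 for Slc1a2 and 0.21 for Glul, beside -0.43. What the markers contribute to these values was not tested.

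**Figure D4:**
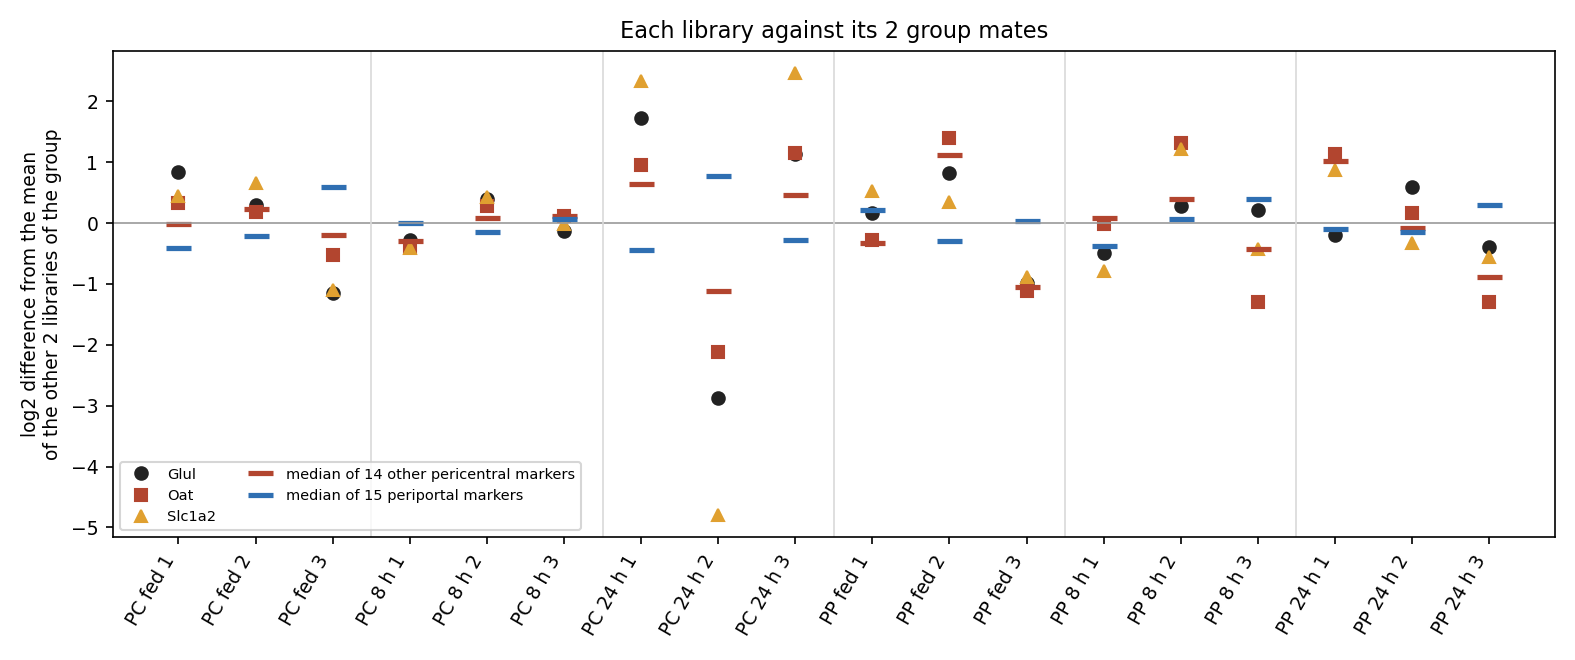
Log2 CPM of Glul, Oat and Slc1a2 in each library minus the mean of the other 2 libraries of its group, with dashes for the median of 14 other pericentral markers (red) and 15 periportal markers (blue). Replicate 2 of the 24 h pericentral group lies at -2.87, -2.11 and -4.80 for the 3 genes, beside -1.11 and 0.78 for the marker medians.

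Across the 18 libraries the 3 genes ran close together in log2 CPM, with Pearson's r of 0.94 for Glul and Oat, 0.97 for Glul and Slc1a2 and 0.97 for Oat and Slc1a2. These points share library, depth and above all the zone. Within the 8 pericentral libraries other than the low one, r was 0.78, 0.63 and 0.53, and within the 9 periportal libraries it was 0.62, 0.60 and 0.82. Of 8014 genes with a mean of at least 5 CPM, those with the pattern most like Glul were Slc1a2 (r = 0.967), Slc13a3 (0.948), a sodium-driven carboxylate transporter, Oat (0.937), Gstm2 (0.937), a glutathione transferase, and Ccdc157 (0.928). Most like Slc1a2 were Oat (0.974), Glul (0.967), Ube2e2 (0.963), a ubiquitin-conjugating enzyme, Npr2 (0.961), a natriuretic peptide receptor, and Slc16a10 (0.960), an aromatic amino acid transporter. Most like Oat were Lhpp (0.992), a phosphatase, Npr2 (0.984), Plbd1 (0.982), Gulo (0.978), the last enzyme of vitamin C synthesis, and Cyp2c38 (0.976). Without the low library, Oat and Slc1a2 ranked first and second for Glul at 0.974 and 0.973, and Lhpp was first for Oat at 0.994.

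Lhpp, the gene most like Oat, is also its neighbour on chromosome 7. It starts 34.2 kb from Oat on the opposite strand, at chr7:132610638-132706420, and shared its zone pattern. Lhpp held 55.4 ± 17.5 CPM in the 9 pericentral and 2.03 ± 1.25 CPM in the 9 periportal libraries, a log2 fold change of -4.87 (SE 0.32, adjusted p = 1.62e-07). The other tested neighbours of Oat within 250 kb did not share it. Fam53b was at -0.16 (SE 0.15, adjusted p = 0.520), and Chst15, a sulfotransferase gene, was higher periportally by 2.63 (SE 0.70, adjusted p = 0.0122) at under 1 CPM. Fgfr2, a fibroblast growth factor receptor gene, had the opposite pattern, with 2.88 ± 2.65 CPM pericentrally and 45.3 ± 8.98 CPM periportally (log2 fold change 4.24, SE 0.23, adjusted p = 2.26e-08). The GENCODE model of Fgfr2 spans Oat on the same strand, but 0 of the 2360 exon bases of Oat are shared with it, and RefSeq ends that gene at 130266808.
No gene tested within 250 kb of Glul or Slc1a2 shared their direction at the threshold. Near Glul, Rgs16, a regulator of G-protein signalling, was higher periportally by 1.38 (SE 0.40, adjusted p = 0.0246) and Rgs8 was near 0. Near Slc1a2, Cd44 was higher periportally by 0.42 (SE 0.14, adjusted p = 0.0415) and Pdhx stood at 0.09 (adjusted p = 0.362). Teddm2 and Mir8114 overlap Glul, and the antisense gene Gm13872 overlaps Slc1a2. None of these 3 passed the count filter, and whether the counting used strand is not given in the sources used here, so their reads and those of the trio may not be separable.

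The genes around the trio were described from lists drawn up for its substrates and products. Counts of called genes in these and later lists are to be read beside the shares over all genes tested. On average over the states 10.3% were called higher periportally and 9.96% pericentrally. From fed to 24 h 10.8% rose and 11.1% fell pericentrally, and 9.59% rose and 10.0% fell periportally. Of 11 tested genes of the ornithine, arginine and proline route, 5 were higher periportally and 2 pericentrally on average over the states, with a median log2 fold change of 0.21 against 0.00 for all genes. Arg1, arginase, which makes ornithine, was higher periportally by 0.63 (SE 0.11, adjusted p = 0.000384), and Otc, which uses ornithine in the urea cycle, by 0.52 (SE 0.07, adjusted p = 2.91e-05). Aldh18a1, which makes the precursor of ornithine from glutamate, was higher periportally by 0.60 (SE 0.20, adjusted p = 0.0470), at 0.854 CPM pericentrally and 1.5 CPM periportally in fed mice. Prodh, proline dehydrogenase, was higher pericentrally, at -0.50 (SE 0.15, adjusted p = 0.0234). Slc25a15, the mitochondrial ornithine carrier, was at 0.29 (SE 0.12, adjusted p = 0.0950). Without the low library 3 genes were called periportal and 2 pericentral. After 24 h 1 gene rose and 1 fell in each zone, near the shares over all genes. Arg1 was the one that rose, by 0.91 (SE 0.18, adjusted p = 0.00216) pericentrally and 0.72 (SE 0.18, adjusted p = 0.0109) periportally.

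Of the 6 tested genes of the urea cycle and ammonia transport, 2 were higher periportally and 2 pericentrally (median 0.47). Asl, argininosuccinate lyase, was higher periportally by 0.94 (SE 0.12, adjusted p = 2.08e-05) and Ass1, argininosuccinate synthase, by 0.71 (SE 0.12, adjusted p = 0.000259). Car5a, the mitochondrial carbonic anhydrase that supplies bicarbonate, was higher pericentrally at -0.63 (SE 0.07, adjusted p = 7.26e-06). Without the low library 3 were called periportal. Aqp8, a water and ammonia channel, was 0.79 (SE 0.29, adjusted p = 0.0732) between zones. Aqp8 fell by 2.69 on the log2 scale after 24 h in the pericentral zone (SE 0.53, adjusted p = 0.00289) and fell by 2.98 in the periportal zone (SE 0.54, adjusted p = 0.00176).

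Among 16 tested enzymes of glutamate and glutamine, 4 were higher periportally and 2 pericentrally (median 0.19). Gls2, the liver glutaminase that runs the reaction opposite to glutamine synthesis, was higher periportally by 2.0 (SE 0.11, adjusted p = 6e-09). In fed mice Gls2 held 105 CPM pericentrally and 536 CPM periportally, a mirror of Glul with a smaller fold. Its pericentral level rose by 1.14 (SE 0.19, adjusted p = 0.000463) after 24 h, while the periportal value was 0.13 (SE 0.19, adjusted p = 0.697). Whether these fasting values differ is given by the interaction, which passed for none of the 16. Asns, asparagine synthetase, which consumes glutamine, was higher pericentrally at -1.84 (SE 0.37, adjusted p = 0.00273), and Glud1, glutamate dehydrogenase, slightly so at -0.30 (SE 0.07, adjusted p = 0.00308). Got1, the cytosolic aspartate aminotransferase, rose by 2.70 (SE 0.42, adjusted p = 0.000462) pericentrally and 2.26 (SE 0.41, adjusted p = 0.00165) periportally after 24 h. In all, 3 of the enzymes rose and 2 fell pericentrally at 24 h, and 1 rose and 3 fell periportally. Over all genes 10.8% rose and 11.1% fell pericentrally, and 9.59% and 10.0% periportally, so counts this small say little about the list.

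Of 15 tested transporters of glutamate, glutamine and related amino acids, 2 were higher periportally and 3 pericentrally (median 0.02). Slc1a5 and Slc1a4, neutral amino acid exchangers of the same family as Slc1a2, were both pericentral, at -2.39 (SE 0.25, adjusted p = 2.64e-06) and -2.21 (SE 0.24, adjusted p = 3.67e-06). Their fed pericentral levels were low, 4.93 CPM for Slc1a5 and 8.76 CPM for Slc1a4. Unlike Slc1a2, for which the 24 h value was -0.01, Slc1a5 fell by 1.63 (SE 0.39, adjusted p = 0.00644) and Slc1a4 by 1.90 (SE 0.38, adjusted p = 0.00187) pericentrally after 24 h, and this contrast between genes was not tested. Slc7a5, an exchanger that exports glutamine for other amino acids, was pericentral at -0.92 (SE 0.17, adjusted p = 0.000736) and fell by 1.43 (SE 0.29, adjusted p = 0.00191). Slc38a4, a sodium-coupled neutral amino acid transporter, was periportal at 0.63 (SE 0.15, adjusted p = 0.00741). Slc38a3, which moves glutamine across the hepatocyte membrane, was at 0.23 (SE 0.10, adjusted p = 0.121). At 24 h 3 transporters rose and 3 fell pericentrally, and 2 rose and 0 fell periportally. Beside the same shares over all genes (10.8% and 11.1%, 9.59% and 10.0%), these counts say little about the list. Of the listed relatives, Slc1a1 was below the count filter and Slc1a3, the other astrocyte glutamate transporter, stayed under 1 CPM in every group mean.

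**Figure D5:**
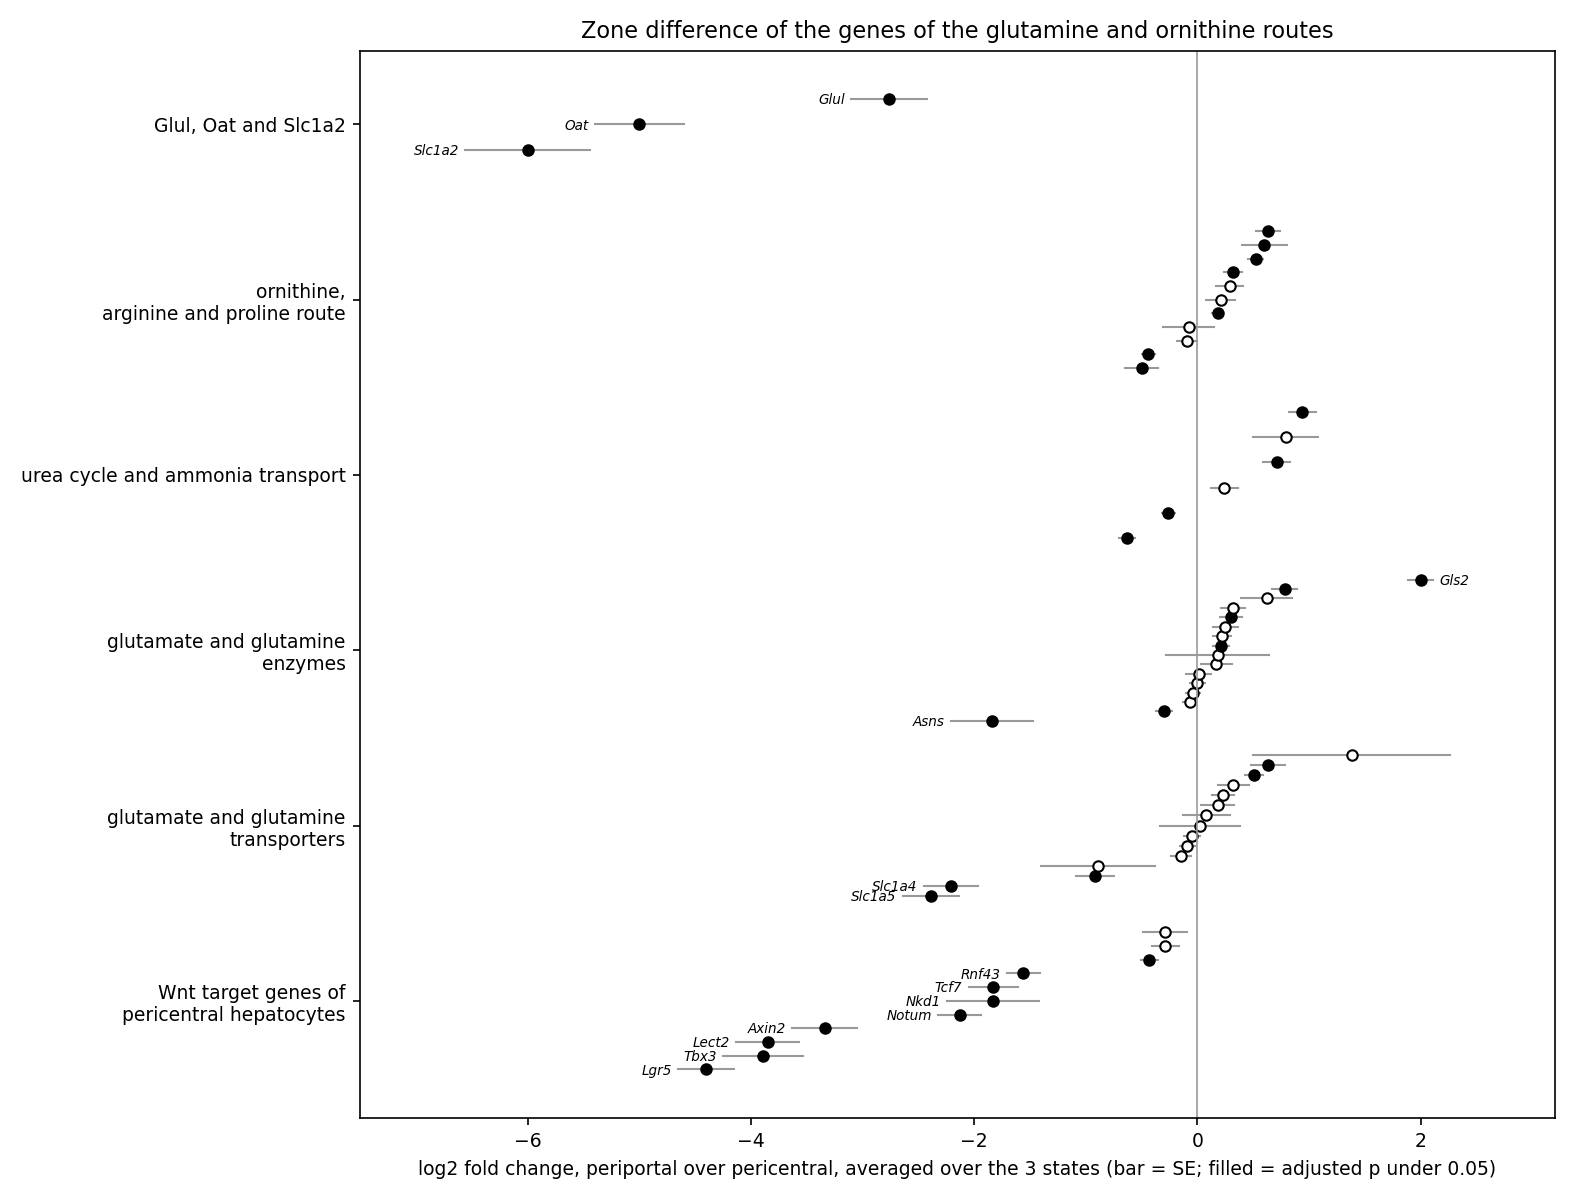
Log2 fold change of periportal over pericentral libraries, averaged over the 3 states, with its SE, for the tested genes of each list; filled points passed an adjusted p of 0.05. Slc1a2 at -6.00 and Oat at -5.00 lie apart from the genes of the substrate lists, which fall between -2.39 and 2.0, and Sp5 is left out because it is at 0 in all fed periportal libraries.

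Of 12 tested Wnt target genes of pericentral hepatocytes, 10 were higher pericentrally and 0 periportally, with a median of -1.98. The list was drawn up for that zone with earlier results of these data known, so these zone calls are no independent result. Lgr5, the receptor that amplifies Wnt signals, was at -4.40 (SE 0.25, adjusted p = 6.9e-09), Tbx3, a transcription factor, at -3.89 (SE 0.36, adjusted p = 3.51e-06) and Lect2, a secreted hepatokine, at -3.85 (SE 0.28, adjusted p = 3.69e-07). Sp5, a transcription factor, averaged 1.96 CPM in fed pericentral libraries and 0 in fed periportal ones. After 24 h 3 of the 12 fell and 2 rose pericentrally, with a median of -0.57, or -0.30 without the low library. Lgr5, 1 of the 3 that fell, was lower by 1.26 (SE 0.34, adjusted p = 0.0137). The pericentral 24 h values of the trio did not pass, but their intervals with all libraries include a fall of that size. These intervals were -1.98 to 0.43 for Glul, -1.84 to 0.67 for Oat and -1.61 to 1.60 for Slc1a2. Whether Lgr5 differs from the trio in its change was not tested. Among 15 tested regulators, Ctnnbip1, an inhibitor of beta-catenin, was periportal at 3.06 (SE 0.13, adjusted p = 4.23e-10), as were Tcf7l1, a mostly repressing TCF, at 2.49 (SE 0.19, adjusted p = 1.22e-07) and Tcf7l2 at 0.42 (SE 0.10, adjusted p = 0.00701). Nr1i3, the nuclear receptor CAR, was pericentral at -1.26 (SE 0.15, adjusted p = 1.31e-05). In total 4 regulators were periportal and 1 pericentral.

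The markers of the opposite zone moved with fasting beside the trio. In pericentral libraries the periportal marker sum was 1380 to 1816 CPM fed, 3847 to 4189 CPM after 8 h and 7423 to 9277 CPM after 24 h, with no overlap between the states. Pck1, a gluconeogenic enzyme among these markers, held most of the 24 h sum, and without it the sums were 1104 to 1660 CPM, 1857 to 2020 CPM and 2631 to 4433 CPM. From fed to 24 h 11 of the 15 periportal markers rose and 0 fell there, also without the low library (median 1.44, or 1.06 without it), while 0 of the 14 other pericentral markers passed (median -0.37, or -0.17). The part of these shifts in the pericentral values of Glul, Oat and Slc1a2 was not tested. Markers of other cell types were scarce in both zones. The 12 endothelial markers summed to 4.01 to 12.0 CPM in pericentral and 4.28 to 38.6 CPM in periportal libraries, and 6 of the 7 tested were higher periportally. The 9 markers of Kupffer cells and leukocytes summed to 0.884 to 7.12 CPM and 0.888 to 25.7 CPM, and 5 of the 8 tested were higher periportally, or 2 without the low library. The 8 markers of stellate cells and fibroblasts summed to 0.696 to 5.14 CPM and 1.25 to 15.5 CPM, with 0 of 3 tested passing. The 6 cholangiocyte markers summed to 19.3 to 37.6 CPM and 32.8 to 56.7 CPM, and 2 of the 3 tested were higher periportally. Of the defining markers in these lists only Epcam was at 0 in all 18 libraries. Of the other cholangiocyte markers, Krt19 reached at most 0.506 CPM and Cftr at most 0.0920 CPM. The cholangiocyte sum thus came mainly from Krt7, Spp1 and Sox9, with highest values of 20.2, 25.1 and 17.4 CPM. The called genes of these lists were higher on the side where the trio was low, and their part in the periportal level of Glul was not tested.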

How the data were processed

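Estimated counts of 18 libraries were deposited as 1 table with genes in rows. Per the submitters' processing notes, kallisto 0.46.0 and mm10 were used; their order and the annotation are not given in the sources used here. Estimated counts were rounded to whole numbers, filtered by edgeR's expression filter (12477 genes tested, totals 18359825 to 26384274) and scaled by TMM. The main test was edgeR 4.0.16's quasi-likelihood test with 6 group terms and Benjamini-Hochberg adjustment over all genes tested (threshold 0.05); SE is the log2 fold change over the root of F. Ratios used 0.5 added counts. Replicate counts differed by 35.1 to 119 in chi-square per gene, above sampling noise. Alternatives used DESeq2 1.42.0, limma-voom 3.58.1, other scalings and filters, and left-out libraries. The 24 h zone test was also run on simulated counts with the spread typical of each gene's level and no outlying library. That run does not cover a library like the low one. The members and lists were chosen with earlier results of these data known. Named genes were the members, neighbours, a few fixed pathway genes and the 5 most correlated genes per member. At most 4 called genes per list, those with the largest zone change, were also named. Cftr, Epcam, Krt7, Krt19, Mir8114, Pck1, Slc1a1, Slc1a3, Sox9, Spp1 and the neighbours were named after their values were seen.

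Same-numbered libraries of different groups had correlations of their deviations from -0.12 to 0.21. Of 15 pairs of groups only the 2 zones at 24 h were above 0.1 for every number (0.12 to 0.17), so a blocked fit is given there. The highest value, 0.21, was between replicates 1 of the 8 h and 24 h periportal groups, which differ in state. A pairing is therefore not established by these values, and the labels name none.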

Additional observations from a re-analysis of the deposited data

How the results depend on the processing

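The zone calls of the 3 genes in fed mice, after 8 h and on average kept their direction and side of the threshold in all 25 or 26 alternatives. At 24 h, Oat (-4.43) and Slc1a2 (-5.60) lost the call with only the groups compared in the fit. Slc1a2 lost it with limma-voom (-4.64, adjusted p = 0.0862), and Glul gained it with DESeq2 (-2.09, adjusted p = 0.00692). In the fit of the 24 h groups with the replicate block, an alternative chosen after seeing the data, the calls of Oat (-4.27) and Slc1a2 (-4.85) were lost. With the replicate block over all 18 libraries, the 24 h minus fed value of Slc1a2 in the pericentral zone was 0.00 in place of -0.01, and no call of the 3 genes changed. Oat from fed to 8 h in the pericentral zone was called (-0.85) with only those groups in the fit. With limma-voom, Slc1a2 there was -0.92 from 8 h to 24 h and -0.95 from fed to 24 h, and its change of the zone gap was 1.74 from fed to 24 h (0.80 with edgeR) and 1.44 from 8 h to 24 h (0.37 with edgeR). The causes of these moves were not tested.

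Leaving out single libraries gave -2.59 to -1.59 for the Glul zone value at 24 h and -6.41 to -5.48 for that of Oat in fed mice. For pericentral fasting it gave -0.39 to 0.12, -0.44 to 0.55 and -0.34 to 0.66 for Slc1a2 (8 h to fed, 24 h to fed, 24 h to 8 h), and -0.69 to 0.33 for Glul and -0.06 to 0.70 for Oat (24 h to 8 h). For periportal 8 h to fed it gave -0.55 to 0.03 for Glul, -0.39 to 0.77 for Oat and -0.21 to 0.59 for Slc1a2, and for 24 h to fed 0.33 to 1.38 for Oat. For the change of the zone gap it gave -0.11 to 0.72 for Slc1a2 and 0.46 to 1.62 for Oat (fed to 8 h), 0.91 to 1.97 for Oat (fed to 24 h), -0.09 to 0.89 for Oat and -0.19 to 0.91 for Slc1a2 (8 h to 24 h). For the log2 ratios it gave -0.14 to 0.28 for Oat to Glul (8 h to fed), 0.33 to 0.60 for Slc1a2 to Glul (8 h to fed), -0.42 to 0.12 for Slc1a2 to Glul (24 h to 8 h), -0.92 to -0.47 for Slc1a2 to Oat between zones and -0.29 to 0.39 for it (24 h to fed). The highest pericentral values of Slc1a2 at 24 h, 0.55 against fed and 0.66 against 8 h, are those without replicate 2 of that group.

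Counts of called genes over the whole table fell by over 1.5 times at most to these values: zone fed 1000 to 614 (without fed pericentral replicate 2), zone 8 h 891 to 450 (only those groups), zone 24 h 520 to 252 (without 24 h periportal replicate 3), pericentral 24 h to 8 h 1212 to 534 (without 8 h pericentral replicate 1), periportal 8 h to fed 1798 to 1081 and 24 h to fed 2446 to 1512 (without fed periportal replicate 1), and periportal 24 h to 8 h 931 to 335 (without 24 h periportal replicate 2). DESeq2 raised zone 24 h to 821. The change of the zone gap from fed to 24 h went from 2 to between 0 and 38. Periportal Slc1a2 rests on 34 to 92 counts a library, which limits its fold.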
